A study of Mus musculus with 24 samples.

Results

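The receptors described here are 10 members of the nuclear receptor superfamily: Rxra, Rxrb, Rara, Rarg, Vdr, Ppard, Pparg, Nr1h2, Thra and Nr3c2. They were chosen by name, as the genes whose mouse Ensembl identifier maps to 1 of these symbols. No measured value enters that rule, but earlier results of these data were known when the names were chosen. All 10 were found among the 17721 genes of the table, and all 10 could be placed in a class, as could 15723 of all genes. The classes, given below, include no rhythm. Of these, 8 bind retinoids, vitamin D or other lipids, while Thra encodes a receptor for thyroid hormone and Nr3c2 one for corticosteroids.

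The epidermis of mice without the clock gene Bmal1 (symbol Arntl) in that tissue was compared with wild-type (WT) epidermis over the day. In these EpiKO mice the Cre recombinase was driven by the keratin 14 promoter, which is active in keratinocytes, and the clock was left in all other tissues. Back-skin epidermis was freed with dispase from 24 male C57BL/6 mice aged 8 weeks, 4 at each of zeitgeber times (ZT) 0, 4, 8, 12, 16 and 20 under a 12 h:12 h light and dark cycle, where ZT0 is lights on. No WT library belongs to the samples of this series, the sources used here do not give their strain, age or sex, and the measurements are the authors' deposited table of fits by dryR, a method that chooses among rhythm models.

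Nuclear receptors are transcription factors, many of which are regulated by a small lipid-soluble ligand. RXR proteins are the shared partners with which the retinoic acid, vitamin D, thyroid hormone, PPAR and LXR receptors form heterodimers on DNA, whereas the mineralocorticoid receptor binds DNA as a homodimer or with the glucocorticoid receptor. In the epidermis these receptors are known for their part in keratinocyte differentiation, barrier lipid synthesis, sebaceous gland function and the hair cycle.

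For each gene the authors' deposited table gives weights that sum to 1 over 5 rhythm models: no rhythm, a rhythm in EpiKO only, in WT only, the same rhythm in both, and different rhythms. A gene was placed in the class of its largest weight where that weight was at least 0.5. An amplitude here is the log2 height from trough to peak of the fitted cosine curve, and a fold amplitude is peak over trough. The table gives no value per library, so there is no spread between animals, no depth and no test, and a weight is a relative support for a model and not a p-value. Genotype and any difference in how the EpiKO and WT libraries were made or processed cannot be told apart.

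As a check on the labels, Arntl was rhythmic in WT only (weight 0.882), with a 4.65-fold amplitude peaking at ZT22.7, in the authors' deposited table. Its mean there was 9.65 in EpiKO and 9.50 in WT (log2), so the transcript as counted was not lower in EpiKO. The sources used here do not say which exons the deletion removes. The keratinocyte genes Krt5 and Krt14 stood at 17.73 and 16.54 (log2) in EpiKO and at 17.82 and 16.54 in WT in the authors' deposited table, and every one of the 9 measured keratinocyte markers was at 8.68 or above in both genotypes.

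Of the 10 receptors, 5 had no rhythm in either genotype, where 56.7% of all genes had none. The WT-only class held 2 of them, Thra and Rxrb, beside 8.41% of all genes. Rxra was the 1 receptor with a rhythm in EpiKO only (4.31% of all genes), Rarg the 1 with the same rhythm in both (16.7%), and Nr1h2 the 1 with different rhythms (2.65%). The classes of Thra, Nr1h2, Rara, Vdr, Ppard and Nr3c2 had weights of 0.826 to 0.979 in the authors' deposited table, while those of Rxra (0.518) and Pparg (0.513) lay just above the limit.

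**Figure D1:**
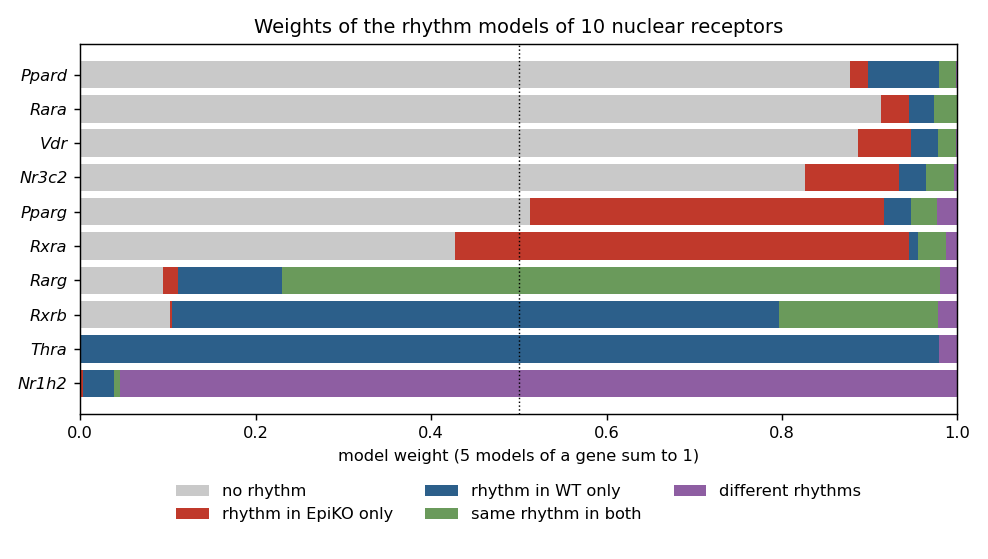
Weights of the 5 rhythm models for each receptor, as stacked bars along an axis from 0 to 1; the dotted line marks the limit of 0.5. The bars of Thra and Nr1h2 are filled almost wholly by the models of a rhythm in WT only and of different rhythms, and those of Pparg and Rxra are shared between no rhythm and a rhythm in EpiKO only.

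The plot of model weights shows the same division. Summed over the 3 models with a rhythm in WT, the weight was 1 for Thra, 0.997 for Nr1h2, 0.895 for Rxrb and 0.889 for Rarg, and no higher than 0.102 for the other 6. Summed likewise for EpiKO, it was 0.965 for Nr1h2, 0.785 for Rarg, 0.562 for Rxra and 0.456 for Pparg, and 0.206 or less for the rest. The medians of these sums over all genes were 0.213 in WT and 0.181 in EpiKO.

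In WT, the curves of Thra, Rxrb and Nr1h2 peaked in the later light phase, at ZT7.43, ZT9.68 and ZT10.3 in the authors' deposited table. Rarg peaked at ZT0.595, shortly after lights on. In EpiKO, Rxra peaked at ZT22.4 and Nr1h2 at ZT4.15, and Rarg kept ZT0.595 because its chosen model has 1 shared curve, per the authors' deposited table. Apart from that of Thra, the amplitudes were small, from 1.12-fold to 1.18-fold.

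**Figure D2:**
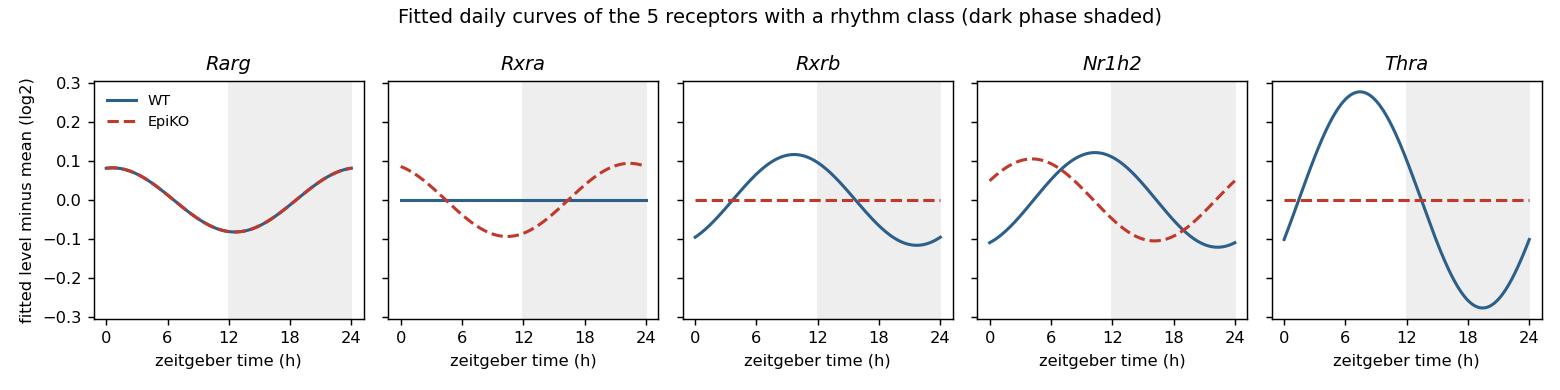
Fitted curves of the 5 receptors with a rhythm class, as the log2 level minus the gene's mean against zeitgeber time in hours, WT as a solid and EpiKO as a dashed line, with the dark phase shaded. A flat line is a genotype in which the chosen model has no rhythm; Thra has the tallest curve, and the Nr1h2 curves of both genotypes are set hours apart.

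Rxra encodes the shared dimer partner that keratinocytes use most, and lies at chr2:27676440-27762957 on the plus strand (build mm10). The authors' deposited table gives it a mean of 12.91 in EpiKO and 13.07 in WT (log2). The fitted EpiKO curve read 13.00, 12.92, 12.83, 12.82, 12.90 and 12.99 at ZT0, 4, 8, 12, 16 and 20, and the WT value was 13.07 at all 6 times. The EpiKO curve was lowest around the change from light to dark and stayed below the WT line throughout. Its amplitude was 0.19 (1.14-fold), and only 3.66% of the genes rhythmic in EpiKO only had a smaller one. The next model, no rhythm, had 0.427 against 0.518 in the authors' deposited table, so the rhythm of Rxra is not firmly assigned.

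Rxrb, a second RXR gene, lies at chr17:34031812-34038399 on the plus strand. Its means were 10.02 in EpiKO and 10.13 in WT (log2), per the authors' deposited table. In WT the fitted curve gave 10.04, 10.14, 10.24, 10.23, 10.12 and 10.03 at the 6 times from ZT0, while EpiKO stayed at 10.02. The WT curve was highest between ZT8 and ZT12, and its trough met the EpiKO level. The amplitude of 0.23 (1.17-fold) exceeded that of 11.01% of the genes rhythmic in WT only. The weight was 0.692 for WT only and 0.181 for the same rhythm in both, per the authors' deposited table.

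Rarg encodes the main retinoic acid receptor of the epidermis and lies at chr15:102234938-102257517 on the minus strand. The authors' deposited table gives a mean of 12.95 for EpiKO and 13.05 for WT (log2), and 1 shared amplitude of 0.16 (1.12-fold). The fitted values were 13.03, 13.00, 12.92, 12.86, 12.89 and 12.97 in EpiKO and 13.13, 13.10, 13.02, 12.97, 13.00 and 13.08 in WT. Both curves were highest at ZT0 and lowest at ZT12, by construction of the shared model, whose weight was 0.749. Among genes with the same rhythm in both, whose median amplitude was 1.24-fold, 6.33% had a smaller one.

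The promoters of Rxra and Rarg are shown because these are the most abundant receptors of the set and because retinoid receptor dimers bind repeats of the hexamer AGGTCA. The 250 bases before 1 annotated start of each are printed on the gene's strand from RefSeq (build GRCm38.p6), with matches to AGGTCA on either strand in capitals.
Rarg, chr15:102257523-102257772, minus strand: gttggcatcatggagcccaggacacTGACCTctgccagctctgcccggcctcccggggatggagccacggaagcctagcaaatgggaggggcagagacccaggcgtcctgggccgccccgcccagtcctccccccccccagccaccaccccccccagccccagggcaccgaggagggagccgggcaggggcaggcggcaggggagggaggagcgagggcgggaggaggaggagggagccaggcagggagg
Rxra, chr2:27709042-27709291, plus strand: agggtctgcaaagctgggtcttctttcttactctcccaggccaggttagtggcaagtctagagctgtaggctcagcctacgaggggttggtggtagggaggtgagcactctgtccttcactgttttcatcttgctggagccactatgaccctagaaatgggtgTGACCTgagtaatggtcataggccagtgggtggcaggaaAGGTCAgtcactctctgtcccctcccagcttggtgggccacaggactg

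Each printed window is the one of its gene that holds a match. The Rarg window held 1, which began 225 bases before the start site, and the window of the other annotated Rarg start held none. The Rxra window held 2, beginning 87 and 48 bases before it, the first on the opposite strand, and the window of the other annotated Rxra start held none. A match was present in 14.02% of the 32851 promoter windows in the reference. No other motif searched on both strands, the E-box CACGTG bound by BMAL1 dimers (6.02% of windows), the D-box TTANGTAA (2.06%) or the steroid receptor half-site AGAACA (16.1%), was found in the windows of Rarg, Rxra or Nr1h2. Of the 17 windows of the 9 receptors with an entry, 1 of Rara held an E-box, 10 bases before its start, and 2 of the 3 of Pparg held an AGGTCA match, 28 and 9 bases before theirs. Such matches describe the letters only.

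Rara encodes a second retinoic acid receptor and lies at chr11:98927818-98974942 on the plus strand. It had no rhythm (weight 0.913). Its mean level in the authors' deposited table was 8.99 in EpiKO and 10.10 in WT (log2), a difference of -1.12 (EpiKO minus WT), or 2.17-fold lower in EpiKO. A lower difference was recorded for 15.9% of all genes.

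Vdr encodes the vitamin D receptor, which in skin is needed for hair cycling, and lies at chr15:97854425-97910630 on the minus strand. It had no rhythm (weight 0.887), with means of 11.67 in EpiKO and 11.85 in WT (log2), per the authors' deposited table. That difference, -0.19, was called with a weight of 0.691 for unequal means.

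Nr1h2 encodes LXR beta, a sensor of oxysterols, and lies at chr7:44549616-44553951 on the minus strand. Its mean was 10.35 (log2) in both genotypes, per the authors' deposited table, because the model with 1 shared mean was chosen. The fitted WT curve read 10.24, 10.34, 10.45, 10.46, 10.36 and 10.25 from ZT0 to ZT20, and the EpiKO curve 10.40, 10.46, 10.41, 10.30, 10.25 and 10.30. At ZT0 EpiKO was the higher of the pair and at ZT12 the lower.

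The peak of Nr1h2 was at ZT10.3 in WT and ZT4.15 in EpiKO, a shift of -6.16 h (EpiKO minus WT), with amplitudes of 0.24 (1.18-fold) and 0.21 (1.16-fold), in the authors' deposited table. Its weight of 0.955 for different rhythms was matched at 0.95 or above by 210 genes in all. The median size of the peak shift among the genes of this class was 6.70 h, but their median amplitudes were 1.64-fold in WT and 1.47-fold in EpiKO, and only 6.38% of them in WT and 7.87% in EpiKO had a smaller amplitude than Nr1h2. The timing of Nr1h2 therefore lay near the middle of its class and its height near the bottom.

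Pparg encodes the receptor that drives fat cell and sebocyte differentiation, and lies at chr6:115360951-115490399 on the plus strand. It was assigned no rhythm with a weight of 0.513, and a rhythm in EpiKO only had 0.403, per the authors' deposited table. Its mean was 5.56 in EpiKO and 4.87 in WT (log2), a 1.61-fold higher level in EpiKO, with a weight of 0.766 for unequal means, per the authors' deposited table.

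Markers of other cell types were read beside Pparg, since sebocytes and fat cells express it. Over all genes, 32.7% had a higher and 37.4% a lower mean in EpiKO. Of 9 sebocyte markers, 5 had a higher and 1 a lower mean in EpiKO, with a median difference of 0.46 (log2), and means from 4.83 to 13.62 in EpiKO and 3.91 to 13.62 in WT. Their summed level was 14.70 in EpiKO and 14.69 in WT (log2), but it rests mostly on Krt79 (13.62) and Scd1 (13.36). For both of these genes the model with 1 shared mean was chosen, so their levels are equal by construction. The 5 higher markers were Mc5r (by 2.19), Far2 (1.24), Elovl3 (1.00), Awat1 (0.91) and Awat2 (0.46), and the lower was Soat1 (-0.69). Of 8 leukocyte markers, 6 were higher in EpiKO and none lower, with a summed level of 11.95 against 11.50. The highest of the 8 was Epcam, at 10.82 in both genotypes because 1 shared mean was chosen, so it weighs heavily in both sums. Of 7 adipocyte markers, 1 was lower and none higher, and the summed level was 5.94 against 6.12. That sum rests mostly on the lower marker, Lipe, at 5.74 in EpiKO and 5.94 in WT. Its weight for unequal means was 0.581. The defining genes Adipoq and Plin1 stood near the floor at -2.21 and -1.65 (log2) in both genotypes, per the authors' deposited table. The part of these cells in the difference of Pparg was not tested, and in bulk epidermis fewer cells of a type and less RNA per cell cannot be told apart.

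Ppard encodes the PPAR known for its role in keratinocyte differentiation and wound repair, and lies at chr17:28232700-28301474 on the plus strand. It had no rhythm (weight 0.878). The authors' deposited table lists its mean at 8.98 (log2) in EpiKO and at 0.59 in WT, a difference of 8.39 and the place 10 from the top among 17721 genes. The lowest WT mean of any gene was -2.49, and 1991 genes stood at or under the WT mean of Ppard.

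Some genes that every cell uses showed the same pattern, and they are named after their values were seen. In the authors' deposited table, Tmsb4x, which binds actin, was at 13.45 in EpiKO and -1.41 in WT (log2), and Uqcr11, of the respiratory chain, at 9.56 and -2.25. A difference of 4 or more was recorded for 45 genes and one of -4 or less for 1067. For this reason no fold is given for Ppard, whose WT value is reported as listed. Only 0.0921% of the 51-base windows of its transcripts occur in another gene, and no exon of another gene overlaps it.

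**Figure D3:**
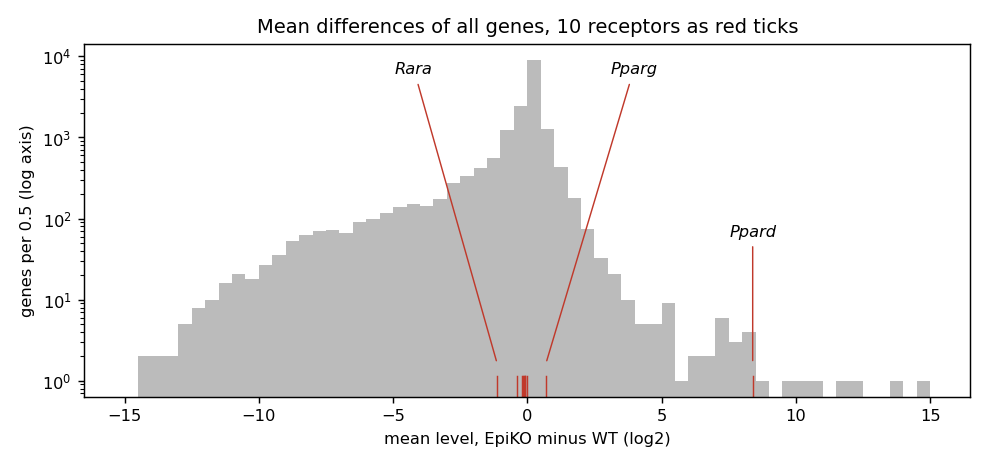
Histogram of the mean difference, EpiKO minus WT (log2), over 17721 genes, with the number of genes per 0.5 on a log axis and the 10 receptors as red ticks. Ppard stands far from the other receptors at 8.39 on the right, Pparg is at 0.68 and Rara at -1.12, and the other 7 ticks lie between -0.39 and 0.

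Nr3c2 encodes the mineralocorticoid receptor, which binds aldosterone and glucocorticoids, and lies at chr8:76899442-77245012 on the plus strand. It had no rhythm (weight 0.826), with means of 4.77 in EpiKO and 5.15 in WT (log2), per the authors' deposited table, a difference of -0.39. An antisense gene, Gm10649, which is not in the table, overlaps 3.82% of its exon bases.

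Over the whole set, a mean was called lower in EpiKO for 7 receptors, where 37.4% of all genes were, and higher for 2, Ppard and Pparg, where 32.7% were. Nr1h2 was the 1 receptor without a call. The histogram of mean differences shows how small most of the lower values were: Rarg, Rxra, Rxrb, Vdr and Thra differed by -0.09 to -0.19, and over all genes the quartiles were -0.45 and 0.21 with a median of 0.

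Levels were compared between receptors after division by the length of the union of exons, as log2 per kilobase. In WT the order was Rarg (10.96), Rxra (10.62), Vdr (9.35), Nr1h2 (8.61), Thra (8.56), Rxrb (8.14), Rara (7.98), Pparg (3.31), Nr3c2 (2.46) and Ppard (-2.32). In EpiKO the first 7 kept that order, from 10.85 for Rarg to 6.86 for Rara, and Ppard (6.08) came before Pparg (3.99) and Nr3c2 (2.07). Since no spread between animals is known, neighbours such as Nr1h2 and Thra cannot be ordered beyond their error, and these 2 changed places when the longest transcript was used as the length.

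**Figure D4:**
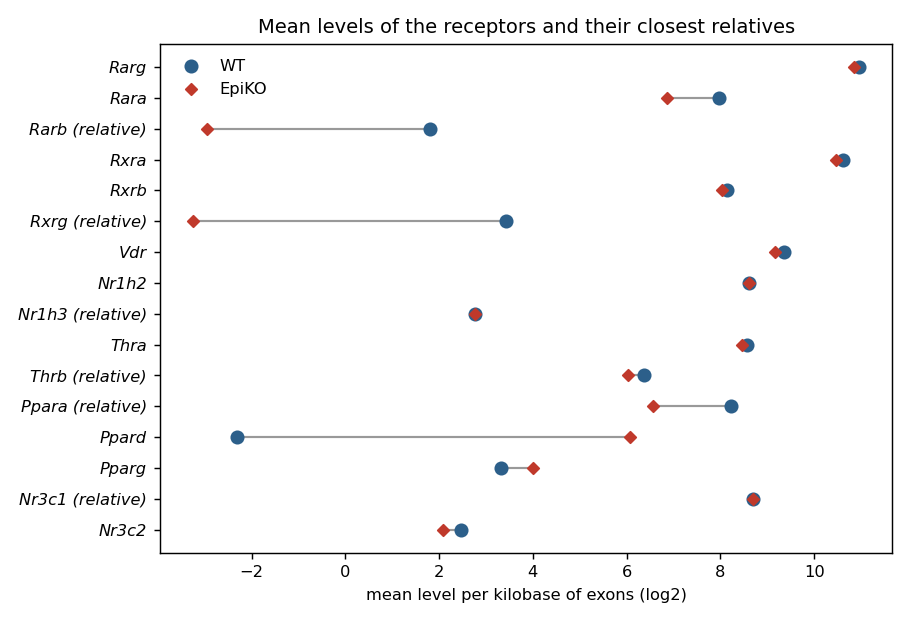
Mean level per kilobase of exons (log2) in WT (circles) and EpiKO (diamonds) for the 10 receptors and 6 relatives of the same subfamilies, joined by a line for each gene. Rarg and Rxra are highest in both genotypes, and the longest lines among the receptors belong to Ppard and Rara.

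Within each subfamily, 1 or more genes stood well above the rest in WT. Rarg and Rara were far above Rarb (1.80 per kilobase in WT, -2.96 in EpiKO), and Rxra and Rxrb above Rxrg (3.43 and -3.25). Before division by length, Rarb and Rxrg stood at -0.56 and -2.05 (log2) in EpiKO, where the lowest mean of any gene was -2.45. Nr1h2 stood above its relative Nr1h3, encoding LXR alpha (2.77 in both), and Thra above Thrb (6.38 and 6.03). Among the PPARs, Ppara was at 8.23 in WT and 6.56 in EpiKO, and Nr3c2 lay well under Nr3c1 (8.69 in both), which encodes the glucocorticoid receptor.

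Thra encodes the thyroid hormone receptor alpha and lies at chr11:98740638-98769006 on the plus strand. Its means were 10.68 in EpiKO and 10.76 in WT (log2), per the authors' deposited table. The fitted WT curve read 10.66, 10.93, 11.04, 10.86, 10.59 and 10.49 at ZT0, 4, 8, 12, 16 and 20, and EpiKO stayed at 10.68. From ZT4 to ZT12 WT was above EpiKO, and at ZT16 and ZT20 it was below. The amplitude was 0.55 (1.47-fold) with a peak at ZT7.43 and a weight of 0.979, per the authors' deposited table. It was the tallest curve among the receptors, and 62.3% of the genes rhythmic in WT only had a smaller one.

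The end of Thra overlaps Nr1d1, the gene of the clock repressor REV-ERB alpha, on the opposite strand. Their exons share 263 bases, chr11:98768157-98768419, which are 5.70% of the exon bases of Thra and 8.55% of those of Nr1d1. The stretch is shown because its first part is exonic in both genes, on opposite strands. It holds 300 bases of Thra exon sequence on the plus strand from GENCODE mouse M21 (build mm10), and the 197 bases that code in both genes are in capitals, while the lower-case bases are exonic in Thra only.
Thra, chr11:98768223-98768522, plus strand: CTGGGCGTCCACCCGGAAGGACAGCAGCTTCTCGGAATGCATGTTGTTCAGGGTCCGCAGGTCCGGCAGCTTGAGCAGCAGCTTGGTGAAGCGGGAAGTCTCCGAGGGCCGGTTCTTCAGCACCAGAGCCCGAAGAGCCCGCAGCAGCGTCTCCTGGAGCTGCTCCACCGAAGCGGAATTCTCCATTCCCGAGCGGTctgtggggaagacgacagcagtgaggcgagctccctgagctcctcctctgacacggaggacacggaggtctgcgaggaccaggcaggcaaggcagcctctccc

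Of the 51-base windows of Thra transcripts, 4.71% occur in Nr1d1 on the opposite strand. In the authors' deposited table Nr1d1 peaked in WT at ZT7.50 with an amplitude of 4.11 and a mean of 10.89 (log2), and in EpiKO at ZT1.69 with an amplitude of 1.62 and a mean of 6.71. The WT peaks of both genes thus fell at nearly the same hour. On a linear scale the fitted WT level of Thra ran from 1433 to 2103, a range of 670, and that of Nr1d1 from 457 to 7873, a range of 7416. A share of 8.55% of the latter, the part on the shared bases if reads fell evenly, is 634. In EpiKO the same share of the Nr1d1 range is 10.6, beside a level of 1635 for Thra. That EpiKO level lies between the WT trough of 1433 and the WT peak of 2103. Even read coverage is an assumption, and whether Nr1d1 reads enter any of these Thra values was not tested.

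The libraries were made with a stranded kit, per the labels' protocols, and whether the counting used strand, or how it treated reads over 2 genes, the sources used here do not say. The part of Nr1d1 reads in the Thra rhythm was not tested. The fitted values of Rxra, Rxrb, Rarg, Vdr, Nr1h2 and Pparg carry no such overlap, as none of their 51-base windows occurred in another gene.

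**Figure D5:**
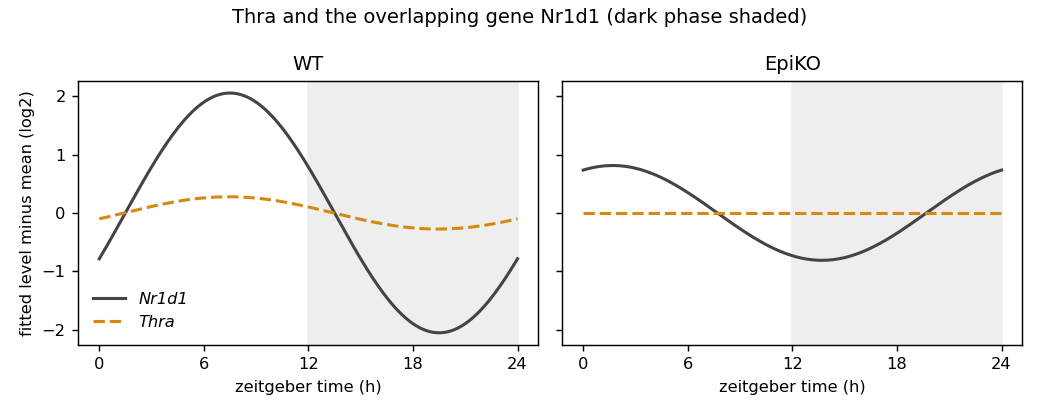
Fitted curves of Thra (dashed) and Nr1d1 (solid) in WT and EpiKO, as the log2 level minus the gene's mean against zeitgeber time in hours, with the dark phase shaded. In WT both curves peak at about the same hour and differ in height, 0.55 against 4.11, and in EpiKO Thra is flat while Nr1d1 peaks at ZT1.69.

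Likeness between curves was measured as the root mean square difference of the fitted, mean-centred values at the 6 times in both genotypes, 12 points in all, among 43 other nuclear receptor genes. Ppara, the PPAR of fatty acid oxidation, was nearest to Thra (0.072) and to Rxrb (0.048), and Rxrb was nearest to Nr1h2 (0.053). A flat curve would stand at 0.14 from Thra, 0.058 from Rxrb and 0.080 from Nr1h2. The next nearest were Rxrb for Thra (0.096), Nr1h2 for Rxrb (0.053) and Nr2c2, the orphan receptor TR4, for Nr1h2 (0.062). Rxra was nearest to Rarg (0.048, against 0.058 for a flat curve), and no gene was nearer to Rxra than a flat curve was. These curves are model choices, so genes of the same class are alike in part by construction.

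The lists of cofactors, ligand supply and targets were read beside all genes of the table, of which 37.4% had a lower and 32.7% a higher mean in EpiKO, with a median difference of 0. By class, 56.7% of all genes had no rhythm, 16.7% the same rhythm and 8.41% a rhythm in WT only. A further 4.31% had a rhythm in EpiKO only and 2.65% different rhythms. Of 18 coactivators, which these receptors recruit to activate genes, 14 had a lower and 4 a higher mean, with a median difference of -0.33 (log2). Among 10 corepressors 6 were lower and 4 higher, with a median of -0.17, a split near that of all called genes. For rhythm, 9 coactivators had none, 3 were rhythmic in WT only, 2 had the same rhythm, 2 had different rhythms, 1 was rhythmic in EpiKO only and 1 had no class. Ppargc1a, encoding the metabolic coactivator PGC-1 alpha, peaked at ZT23.8 in WT and at ZT8.26 in EpiKO (1.57-fold) in the authors' deposited table.

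Genes of ligand supply and known targets were read beside their receptors. Of 18 genes of retinoid metabolism, 5 were rhythmic in WT only, 2 had the same rhythm, 8 had none and 3 no class, and 9 had a higher and 5 a lower mean in EpiKO. Crabp1, a retinoic acid binding protein, was rhythmic in WT only (weight 0.767) with a 20.5-fold amplitude, in the authors' deposited table. Its WT mean was only 3.95 (log2), beside a median of 7.79 over all genes, so this fold rests on low levels. Of 8 targets of the retinoic acid receptors, 6 had a lower mean in EpiKO and 1 a higher, with a median difference of -0.55 (log2), beside 37.4% lower, 32.7% higher and a median of 0 over all genes, and 5 had no rhythm. One of the 6 was Rarb, itself a receptor of the family, at -0.56 in EpiKO and 4.20 in WT (log2), per the authors' deposited table. Rarb is among the 1067 genes with a difference of -4 or less, and its EpiKO value is below 0 (log2). No fold is given for it, as for Ppard. Of 10 vitamin D genes 8 had no rhythm, 3 had a higher mean and none a lower, and Trpv6, a calcium channel induced by vitamin D, had the same 1.34-fold rhythm in both genotypes, per the authors' deposited table.

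Among 24 targets of the PPARs, 4 had the same rhythm, 3 different rhythms and 3 a rhythm in WT only, while 10 had none and 4 no class. Of these 24, 13 had a higher and 5 a lower mean in EpiKO, with a median difference of 0.11 (log2). Cpt1a, which admits fatty acids to mitochondria, had the same 1.43-fold rhythm peaking at ZT5.46 in the authors' deposited table. Of 12 LXR targets, 4 had the same rhythm, 1 different rhythms, 1 a rhythm in WT only, 4 none and 2 no class, and the mean was higher in EpiKO for 1 and lower for 3. Scd2, a fatty acid desaturase, had the same 2.01-fold rhythm in the authors' deposited table. Mylip was the 1 LXR target with different rhythms (weight 0.572), peaking at ZT8.22 in WT and ZT23.3 in EpiKO. Its peak shift was -8.93 h (EpiKO minus WT), beside -6.16 h for Nr1h2. Whether LXR targets follow Nr1h2 was not tested.

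Of 9 thyroid hormone genes, 3 had the same rhythm, 1 a rhythm in WT only, 1 in EpiKO only, 3 none and 1 no class, with 1 mean higher and 4 lower in EpiKO. Klf9, a target of thyroid hormone and of glucocorticoids, had the same 2.41-fold rhythm peaking at ZT8.76 in the authors' deposited table. Me1, on the same list, was rhythmic in WT only (weight 0.558), as Thra was, with a 1.64-fold amplitude peaking at ZT4.98. Whether such targets follow Thra was not tested. Of 12 genes of corticosteroid conversion and targets shared by the mineralocorticoid and glucocorticoid receptors, 5 had the same rhythm, 1 different rhythms, 1 a rhythm in EpiKO only, 3 none and 2 no class, with 3 means higher and 4 lower in EpiKO. Fkbp5, a chaperone of steroid receptors, had a 5.06-fold rhythm in both genotypes that peaked at ZT12.2, in the authors' deposited table, beside a flat Nr3c2.

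Over the 147 measured genes of these lists and of the other nuclear receptors, 69 had no rhythm (56.7% of all genes), 24 the same rhythm (16.7%), 21 a rhythm in WT only (8.41%), 11 different rhythms (2.65%), 4 a rhythm in EpiKO only (4.31%) and 18 no class.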

How the data were processed

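RNA-seq libraries of EpiKO epidermis were compared with WT libraries in 1 table, and the series design text names dryR for that comparison. The submitters' processing notes list, in no order, edgeR, featureCounts 1.6.0, SAMtools 1.3.1, HISAT2 2.2.1, Trimmomatic 0.36 and the mm10 genome; whether counting used strand is not stated there. The model weights are a score between 0 and 1, given per gene for 5 rhythm models and for 2 models of the mean, as the authors deposited them. Mean levels are log2 values as deposited by the authors. The base was taken as 2, since with base e the back-transformed WT means would sum to more reads than a library usually holds. The deposited amplitude and coefficient columns share a unit, as their mutual relation shows. Doubling the root of the summed squared coefficients gives the amplitude within 1e-06 for 5062 EpiKO and 5914 WT rhythms. That unit was taken as the log2 unit of the means, since the column headers name none. The side of the table that is not WT, headed FC_LD, was taken as EpiKO.

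Symbols matched 17720 of 17721 identifiers. A class needed a weight of at least 0.5, and a mean was called different at the same limit. No filter on low values was used. No test was run, as no value per library was at hand, and the 24 h curves at each time were rebuilt from the deposited coefficients. The members and lists were chosen with earlier results of these data known. All receptors are named. From each pathway list the rule takes up to 4 genes by amplitude and 2 by mean difference, of which a part is named, and for each rhythmic receptor the 2 nearest curves. Arntl, the markers, Tmsb4x and Uqcr11 were named besides, the relatives for their kinship, and the linear ranges of Thra and Nr1d1 were computed after values were seen. Positions and exons come from GENCODE mouse M21 (mm10) and promoters from RefSeq (GRCm38.p6), where 9 of the 10 receptors had an entry. The scripts were tested on simulated data. Python 3.11.15, NumPy 2.4.6, pandas 2.3.3 and Matplotlib 3.10.9 were used. Some genes that the rule takes are not reported here.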

Additional observations from a re-analysis of the deposited data

How the results depend on the processing

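Of 50 alternative counts, 32 stayed within 1.5 times the reported one and 18 moved. A weight limit of 0.8 left 0 receptors rhythmic in EpiKO only, 1 in WT only (Thra), 0 with the same rhythm and 1 with a higher mean, and among the pathway genes 41 without rhythm, 1 rhythmic in EpiKO only, 8 in WT only and 6 with different rhythms. A minimum amplitude of 0.25 (log2) left 9 receptors without rhythm, 0 rhythmic in EpiKO only, 1 in WT only (Thra), 0 with the same rhythm and 0 with different rhythms. A minimum mean difference of 0.5 left 1 receptor lower in EpiKO, and centring on the median with a minimum of 0.25 left 2. The median difference over all genes is 0, so the centring shifted no value and only the minimum of 0.25 acted. Leaving out pathway genes under the 0.25 quantile of mean level left 42 without rhythm. Chosen after seeing the data, leaving out Thra and Nr3c2, whose exons overlap another gene, left 1 receptor rhythmic in WT only, and leaving out Ppard left 1 with a higher mean. No paired analysis was possible because the table holds no value per library, and for the same reason no library could be left out. Limits of none and 0.4 could change no receptor's class count, since the lowest class weight among the receptors was 0.513 (Pparg). Their unchanged counts are among the 32 and say nothing on robustness. With the longest transcript as length, 44 of 45 pairs of receptors kept their order of level in each genotype. Depth is unknown, and its effect on small amplitudes was not tested.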

Other observations

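Nr4a2, an orphan receptor induced early after stimuli, was rhythmic in EpiKO only with a 6.13-fold amplitude peaking at ZT4.35 in the authors' deposited table. Of the 34 other nuclear receptors measured, 19 had no rhythm (56.7% of all genes) and 5 were rhythmic in WT only (8.41%). Another 4 had the same rhythm (16.7%), 3 had different rhythms (2.65%), 1 was rhythmic in EpiKO only (4.31%) and 2 had no class. The means of these 34 were lower in EpiKO for 16 (37.4% of all genes) and higher for 7 (32.7%).

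Rxrg and Nr2e1 had the largest mean differences of that list, at -2.05 and -2.41 in EpiKO and 4.63 and 3.74 in WT (log2), per the authors' deposited table. Both are thus near the lowest EpiKO mean of the table, -2.45. Of the 34 genes, 10 were at or under 0 (log2) in EpiKO, and 6 were in WT.

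Among other cell types, 3 of 7 fibroblast markers had a higher mean in EpiKO and none a lower, and 2 of 6 melanocyte markers a lower and none a higher. Over all genes, 32.7% had a higher and 37.4% a lower mean. Of 7 markers of endothelium and muscle, 3 were higher and 2 lower. Their summed level of 4.41 (log2) in EpiKO against 9.91 in WT rests on 1 gene, muscle actin Acta1, at 2.21 in EpiKO and 9.90 in WT, per the authors' deposited table, which is named after its values were seen.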
